A study of Homo sapiens with 12 samples.

Results

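The S phase genes described here are 46 human genes that carry out or time DNA replication, many of them textbook targets of the E2F transcription factors. They were taken by gene symbol from a written list, drawn up with earlier results of these data known, and grouped by the step they serve. Each was read from its Illumina probe, kept where the deposited detection p-value was under 0.05 on 3 or more of the 12 arrays. Of the 46 genes, 44 were measured, among 17988 features tested in all (12492 named genes and the rest unnamed probes). Of several kept probes for a gene, the one brightest on average stood for it. GINS1 and CCNE2 fell short, each detected on 2 arrays, with log2 signals of 4.35 to 5.06 and 4.30 to 5.10. The measured genes detected on the fewest arrays were CDC6 on 7 and CLSPN on 8, and the other 42 were detected on all 12.

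Before a cell copies its DNA, the origin recognition complex, CDC6 and CDT1 load the ring of MCM2 to MCM7 onto origins, a step called licensing. MCM10, CDC45 and the GINS complex turn the loaded ring into a running helicase, polymerases alpha, delta and epsilon then copy the strands, and PCNA and its RFC loader hold them on the template. E2F factors, released from pocket proteins by cyclin-dependent kinases, switch on most of these genes at the start of S phase, and CDKN1A blocks those kinases.

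The arrays measured messenger RNA in SK-OV-3, an established human ovarian cancer line. Cells were transfected with a scrambled shRNA (shCTRL) or with an shRNA against IRF-1 (labelled shIRF1), and part of the cells of each kind received CDDP (cisplatin, a drug that crosslinks DNA) for 24 hours. The 4 groups held 3 arrays each. The series addressed the expression profile of IRF-1 silenced cells, IRF-1 (gene IRF1) being a transcription factor of the interferon response. All groups are 1 cell line carrying an shRNA, so no array shows untransfected cells. The dose of CDDP and the number of clones behind each shRNA are not given in the sources used here. Whether the 3 arrays of a group come from separate cultures is not stated, so a p-value here covers the spread among these 3, which may be technical.

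Between 18075 and 21126 of 47313 probes were detected per array, with mean signals of 259 to 388. Arrays of 1 group correlated at 0.974 to 0.987 (12 pairs) and arrays of different groups at 0.921 to 0.979 (54 pairs). Of 7 markers of SK-OV-3 and epithelium, 6 were detected on all 12 arrays and KRT18 on 11. Among markers of other cells, CD3E, COL3A1, VWF, CDH5 and CLDN5 were detected on no array and PTPRC on at most 1, while COL1A1 was detected on 12, CD14 on 10 and LUM on 9. The mean log2 signal of the leukocyte markers was 4.56 to 4.80 without CDDP and 4.75 to 5.11 with it, and that of the epithelial markers 10.43 to 10.64 without and 9.71 to 10.16 with. The part of these shifts in the results below was not tested.

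The targeted gene did not separate the labels without CDDP. IRF1 read 8.30, 8.51 and 7.84 on the log2 scale under shCTRL and 8.59, 8.14 and 8.20 on the arrays labelled shIRF1, which overlap (difference 0.10, standard error 0.25, limma adjusted p = 0.902). With CDDP it read 9.97, 10.38 and 9.38 under shCTRL and 8.94, 9.08 and 9.26 under the shIRF1 label. These did not overlap, with a difference of -0.82 (standard error 0.25) that missed the threshold (adjusted p = 0.0811). Every difference between shRNA groups below is therefore one between arrays labelled shIRF1 and shCTRL.

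Array values in this text run from replicate 1 to 3. The promoters of 6 of these genes are printed here because their signals stand at the ends of the responses described below. E2F2, CDC25A and CCNE1 had the 3 highest log2 changes with CDDP under each label, MCM6 and POLA1 fell, and UHRF1 was lower under the shIRF1 label. Each line gives the 250 bases before the annotated start from RefSeq (GRCh38.p14), read in the direction of transcription. Capitals mark an E2F site, searched on both strands as TTTCCCGC, TTTCGCGC, TTTGCCGC or TTTGGCGC. They lie at chr1:23531234-23531483 (E2F2, minus strand), chr3:48188418-48188667 (CDC25A, minus), chr19:29811741-29811990 (CCNE1, plus), chr2:135876444-135876693 (MCM6, minus), chrX:24693668-24693917 (POLA1, plus) and chr19:4909251-4909500 (UHRF1, plus).
E2F2: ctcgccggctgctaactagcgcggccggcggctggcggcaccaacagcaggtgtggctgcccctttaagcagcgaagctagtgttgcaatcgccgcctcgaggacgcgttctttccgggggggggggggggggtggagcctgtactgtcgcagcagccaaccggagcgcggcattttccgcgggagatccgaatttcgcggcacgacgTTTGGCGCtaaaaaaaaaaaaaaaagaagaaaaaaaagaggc
CDC25A: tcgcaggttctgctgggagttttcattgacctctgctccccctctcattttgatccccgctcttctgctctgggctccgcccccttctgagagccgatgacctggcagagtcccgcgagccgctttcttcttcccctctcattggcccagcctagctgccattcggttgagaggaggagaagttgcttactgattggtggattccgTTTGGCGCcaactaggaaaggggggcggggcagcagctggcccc
CCNE1: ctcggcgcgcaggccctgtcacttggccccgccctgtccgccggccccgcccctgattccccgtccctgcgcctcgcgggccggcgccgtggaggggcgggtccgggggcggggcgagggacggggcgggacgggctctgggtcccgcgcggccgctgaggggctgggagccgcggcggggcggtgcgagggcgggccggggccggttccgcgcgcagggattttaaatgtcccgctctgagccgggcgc
MCM6: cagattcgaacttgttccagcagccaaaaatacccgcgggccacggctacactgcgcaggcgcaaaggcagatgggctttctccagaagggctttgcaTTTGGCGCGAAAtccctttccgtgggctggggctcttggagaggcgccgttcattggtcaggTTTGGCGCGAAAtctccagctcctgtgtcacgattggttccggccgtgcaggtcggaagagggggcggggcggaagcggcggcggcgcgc
POLA1: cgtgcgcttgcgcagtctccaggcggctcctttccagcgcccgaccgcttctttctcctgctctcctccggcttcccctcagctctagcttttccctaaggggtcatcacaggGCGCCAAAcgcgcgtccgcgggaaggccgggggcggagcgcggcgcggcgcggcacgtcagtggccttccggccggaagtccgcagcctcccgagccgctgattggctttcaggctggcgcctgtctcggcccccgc
UHRF1: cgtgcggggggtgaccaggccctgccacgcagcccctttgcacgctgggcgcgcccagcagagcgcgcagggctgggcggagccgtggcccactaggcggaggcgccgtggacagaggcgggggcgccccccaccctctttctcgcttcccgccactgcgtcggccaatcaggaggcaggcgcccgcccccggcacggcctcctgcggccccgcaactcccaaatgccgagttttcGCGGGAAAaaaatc

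RefSeq windows from 250 bases before to 50 after the start were at hand for 41 of the 46 genes and not for MCM4, MCM5, GINS4, POLD3 and CCNE2. At least 1 of the 4 E2F words stood in 23 of the 41 windows (56.1%), against 1164 of 35116 windows of all genes (3.31%). The list was drawn up to hold E2F targets, so this excess is no result of these arrays. The 35116 windows are also not limited to genes measured here. MCM6 held 4 matches in this search, where the same place on both strands counts as more than 1 and such matches overlap. CCAAT, the box bound by NF-Y, stood in 23 windows (56.1%, against 34.6% of all), and TTTGAA, the cell cycle homology element common before mitosis genes, in 1 (2.44%, against 15.2%). The element bound by IRF factors was matched in 0 of 41 windows and in 3.57% of all. A match is a run of letters and not a measured binding site. With CDDP under shCTRL the median log2 change was 0.47 over 22 measured genes with an E2F word and 0.51 over 18 without. Of these, 9 and 7 rose at an adjusted p under 0.05 in limma. Under the shIRF1 label the medians were 0.69 and 0.90, and 14 of the 22 and 16 of the 18 rose. Whether the letters go with the changes was not tested.

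The first question is what CDDP did to the replication genes. More of them rose than fell under both shRNA labels, as did CDKN1A. CDKN1A, the inhibitor of cyclin-dependent kinases, read 6.63, 7.71 and 6.83 under shCTRL and 11.59, 12.06 and 11.04 with CDDP, a log2 change of 4.51 (standard error 0.30, adjusted p = 1.06e-07). CDC6 and CLSPN were kept only through the arrays with CDDP, where they read higher, so counts are given first for the 42 genes detected on all 12 arrays. Under shCTRL, 15 of the 42 rose and 2 fell at a limma adjusted p under 0.05, 35.7% and 4.76%, where 13.5% of all 17988 features rose and 13.5% fell. Their median log2 change was 0.47, against 0.04 over all features. Under the shIRF1 label 31 of the 42 rose (73.8%) and 1 fell, where 10.5% of all features rose and 11.5% fell, and the median change was 0.85 against 0.02. With CDC6 and CLSPN the rises were 17 and 33 of 44, and the counts below are over these 44. In RNA from a culture as a whole, a change in the number of cells that express a gene and a change in RNA per cell cannot be told apart. With median scaling in place of quantiles, 33 became 21, and the rises' share of all calls under shCTRL went from 50% to 38.5%.

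All 17 genes that rose under shCTRL also rose under the shIRF1 label (100% of the 17, 51.5% of the 33), in arrays the 2 comparisons do not share. The matching share over all features is not given here, so the overlap is not shown to be particular to these genes. Both comparisons take each gene's spread from the same fit of all 12 arrays, so their calls are not independent. CDC6 and CLSPN, kept only through the arrays with CDDP, are among the 17, and the other 15 were detected on all 12 arrays. The changes of the 44 genes, CDC6 and CLSPN included, correlated between the comparisons at r = 0.884, and those of all features at 0.826. This is a description across genes that are no replicates. Arrays with and without CDDP did not overlap for 20 of the 42 genes detected throughout under shCTRL (47.6%, against 40.2% of all features) and for 37 under the shIRF1 label (88.1%, against 36.9%). Of the shCTRL arrays with CDDP, replicate 2 read highest for 30 of the 44 genes and replicate 3 lowest for 24. Without that replicate 2 the rises under shCTRL numbered 11. Calls under shCTRL that were lost without some 1 array were those of CDT1, MCM2, MCM6, GINS4, PCNA, CHAF1B, DTL and CLSPN. Under the shIRF1 label they were those of CDC6, GMNN, GINS2, GINS4, PRIM1, POLD1, POLD3, POLE2, RFC3, RFC4, RRM1 and UHRF1. Median scaling ended the same calls under that label, other than GINS4, and also that of SLBP. Averaged over the 42 genes detected on all 12 arrays, each array's log2 signal was 8.95 to 9.10 under shCTRL and 9.33 to 9.80 with CDDP. Under the shIRF1 label it was 8.46 to 8.72, and 9.47 to 9.64 with CDDP. The ranges with and without CDDP did not overlap under either label.

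**Figure D1:**
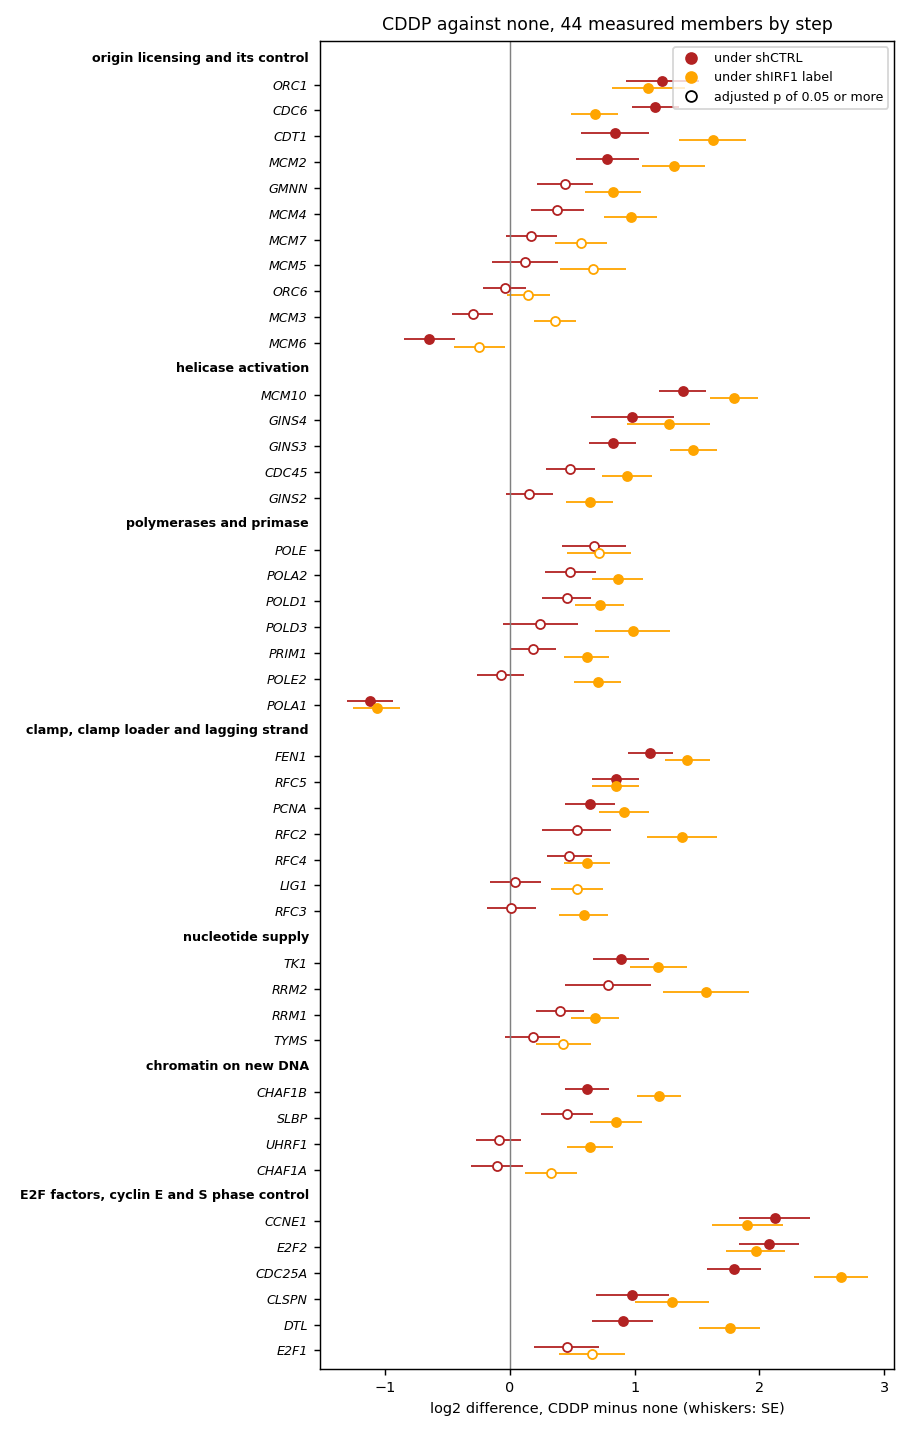
Log2 difference between arrays with and without CDDP (x axis) for the 44 measured genes, by step (y axis), under shCTRL and under the shIRF1 label; whiskers are standard errors and filled points have an adjusted p under 0.05. Most points lie right of 0, CDC25A furthest at 2.65, and POLA1 lies left of -1 under both labels.

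The E2F factors, cyclin E and S phase control genes held the largest rises with CDDP. CCNE1, the cyclin E that drives CDK2 into S phase, read 7.77, 7.84 and 8.39 under shCTRL, 9.75, 10.78 and 9.83 with CDDP, 7.97, 8.36 and 8.49 under the shIRF1 label and 10.21, 10.55 and 9.77 with CDDP. Every CDDP array lay above every array without it, and the log2 changes were 2.12 and 1.90 (standard error 0.28 for each, adjusted p = 4.93e-05 and 0.000168). E2F2, an activator E2F, read 7.94, 8.03 and 7.81 and then 9.73, 10.65 and 9.63 under shCTRL, and 7.53, 7.69 and 8.03 and then 9.69, 9.79 and 9.69 under the shIRF1 label. Its groups were as far apart, at 2.08 and 1.97 (standard error 0.24). CDC25A, the phosphatase that frees CDK2 of its inhibitory phosphates, read 6.53, 6.25 and 6.97 and then 8.19, 8.68 and 8.27 under shCTRL, and 6.75, 6.25 and 6.53 and then 9.28, 9.29 and 8.93 under the shIRF1 label. It rose by 1.80 and by 2.65 (standard error 0.22), and its CDDP arrays under the shIRF1 label all lay above those under shCTRL. A dimmer CDC25A probe, detected on 7 arrays, changed by 0.47 under shCTRL, short of the threshold in a fit over all kept probes (adjusted p = 0.265), and rose by 1.41 under the shIRF1 label.

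In the same step DTL, which brings CDT1 to its ubiquitin ligase, rose by 0.90 and 1.76. CLSPN (claspin), the mediator that passes the stalled fork signal to CHEK1, rose by 0.98 under shCTRL. With no background correction its change was 0.35 and missed the threshold (adjusted p = 0.0533). No array labelled shIRF1 without CDDP detected CLSPN, so its rise there is given as a bound of at least 1.91-fold against the lowest detected signals. E2F1, the best known activator, changed by 0.45 and 0.66 with adjusted p of 0.232 and 0.09. The step thus counted 5 rises of 6 measured genes under each label, CLSPN included (83.3%, against 13.5% and 10.5% of all features). A further CCNE1 probe, detected on 3 arrays, changed by -0.19 and 0.24 and was not called.

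Origin licensing split among its own parts. Of 11 measured genes, 4 rose and 1 fell under shCTRL (36.4% and 9.09%, against 13.5% and 13.5% of all features). Under the shIRF1 label 6 rose (54.5%, against 10.5%), none fell and the other 5 missed the threshold. CDC6 is counted in both. CDT1, the loader of the MCM ring, read 8.30, 8.29 and 8.03 under shCTRL, 9.00, 9.62 and 8.54 with CDDP, 7.37, 7.72 and 7.98 under the shIRF1 label and 9.80, 9.19 and 8.96 with CDDP. It rose by 0.84 (standard error 0.27, adjusted p = 0.0307) and by 1.62 (adjusted p = 0.000462), with no overlap under either label. MCM2, a subunit of the ring, read 8.75, 8.09 and 8.30 and then 9.30, 9.59 and 8.60 under shCTRL, where 1 CDDP array lay inside the range without CDDP. Under the shIRF1 label it read 8.01, 8.22 and 7.58 and then 9.34, 9.19 and 9.21, clear of each other, and the changes were 0.78 and 1.31. Without shCTRL CDDP replicate 2 the adjusted p under shCTRL was 0.156 for CDT1 and 0.145 for MCM2.

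MCM6, of the same ring, went the other way. It read 11.27, 10.52 and 11.05 under shCTRL and 10.39, 10.36 and 10.15 with CDDP, all lower, and fell, with a log2 change of -0.65 (standard error 0.20, adjusted p = 0.0284), a call lost with median scaling (adjusted p = 0.166). With the shIRF1 label it changed by -0.24 (adjusted p = 0.463). Between these ends, MCM3, MCM4, MCM5 and MCM7 changed by -0.30, 0.38, 0.12 and 0.17 under shCTRL, none past the threshold. On the shIRF1 side MCM4 rose by 0.97 (0.79 and not called on a further probe, adjusted p = 0.106), while MCM3, MCM5 and MCM7 changed by 0.36, 0.67 and 0.57 with adjusted p of 0.142, 0.088 and 0.0592.

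CDC6, which works with CDT1 at the origin, was near the detection limit without CDDP. It read 4.55, 5.26 and 4.73 under shCTRL, where 1 of 3 arrays detected it, and 5.92, 6.11 and 6.01 with CDDP, a rise of 1.17 (adjusted p = 0.00027). The size of this rise is uncertain so near background, and with no background correction it was 0.41, still past the threshold. With the shIRF1 label it read 4.73, 4.51 and 4.48, not detected on any of the 3 arrays, and 5.19, 5.27 and 5.30 with CDDP, at least 1.27-fold higher. ORC1, the largest subunit of the origin recognition complex, rose by 1.22 and 1.11. GMNN (geminin), which holds CDT1 back, changed by 0.44 (adjusted p = 0.174) under shCTRL and rose by 0.83 under the shIRF1 label. The 2 probes of ORC6, the smallest subunit, disagreed: the brighter one changed by -0.04 and 0.15, not called. The dimmer one read 7.53, 7.68 and 8.12 under shCTRL and 9.94, 9.47 and 9.03 with CDDP, a called rise of 1.70, and rose by 2.06 under the shIRF1 label. Which of them reports the ORC6 transcript was not tested.

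Helicase activation rose in 3 of 5 measured genes under shCTRL (60%, against 13.5% of all features). Under the shIRF1 label it rose in 5 of 5 (against 10.5% of all features). MCM10, the factor that sets the loaded helicase in motion, read 8.39, 8.19 and 8.80 under shCTRL, 9.74, 9.80 and 10.00 with CDDP, 7.80, 8.07 and 8.17 under the shIRF1 label and 9.82, 9.93 and 9.67 with CDDP. Its rises of 1.38 and 1.80 (standard error 0.19, adjusted p = 6.45e-05 and 8.25e-06) stood well clear of the spread between arrays. GINS3, a subunit of the GINS complex, read 8.97, 8.78 and 8.55 and then 9.57, 9.86 and 9.34 under shCTRL, and 7.99, 8.22 and 8.19 and then 9.58, 9.46 and 9.77 under the shIRF1 label. These did not overlap either, with rises of 0.82 and 1.47. GINS4 rose by 0.98 and 1.27, the first call lost in 10 of 22 alternative analyses, and CDC45 and GINS2 rose by 0.94 and 0.64 under the shIRF1 label, where shCTRL gave 0.49 and 0.16 without passing.

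**Figure D2:**
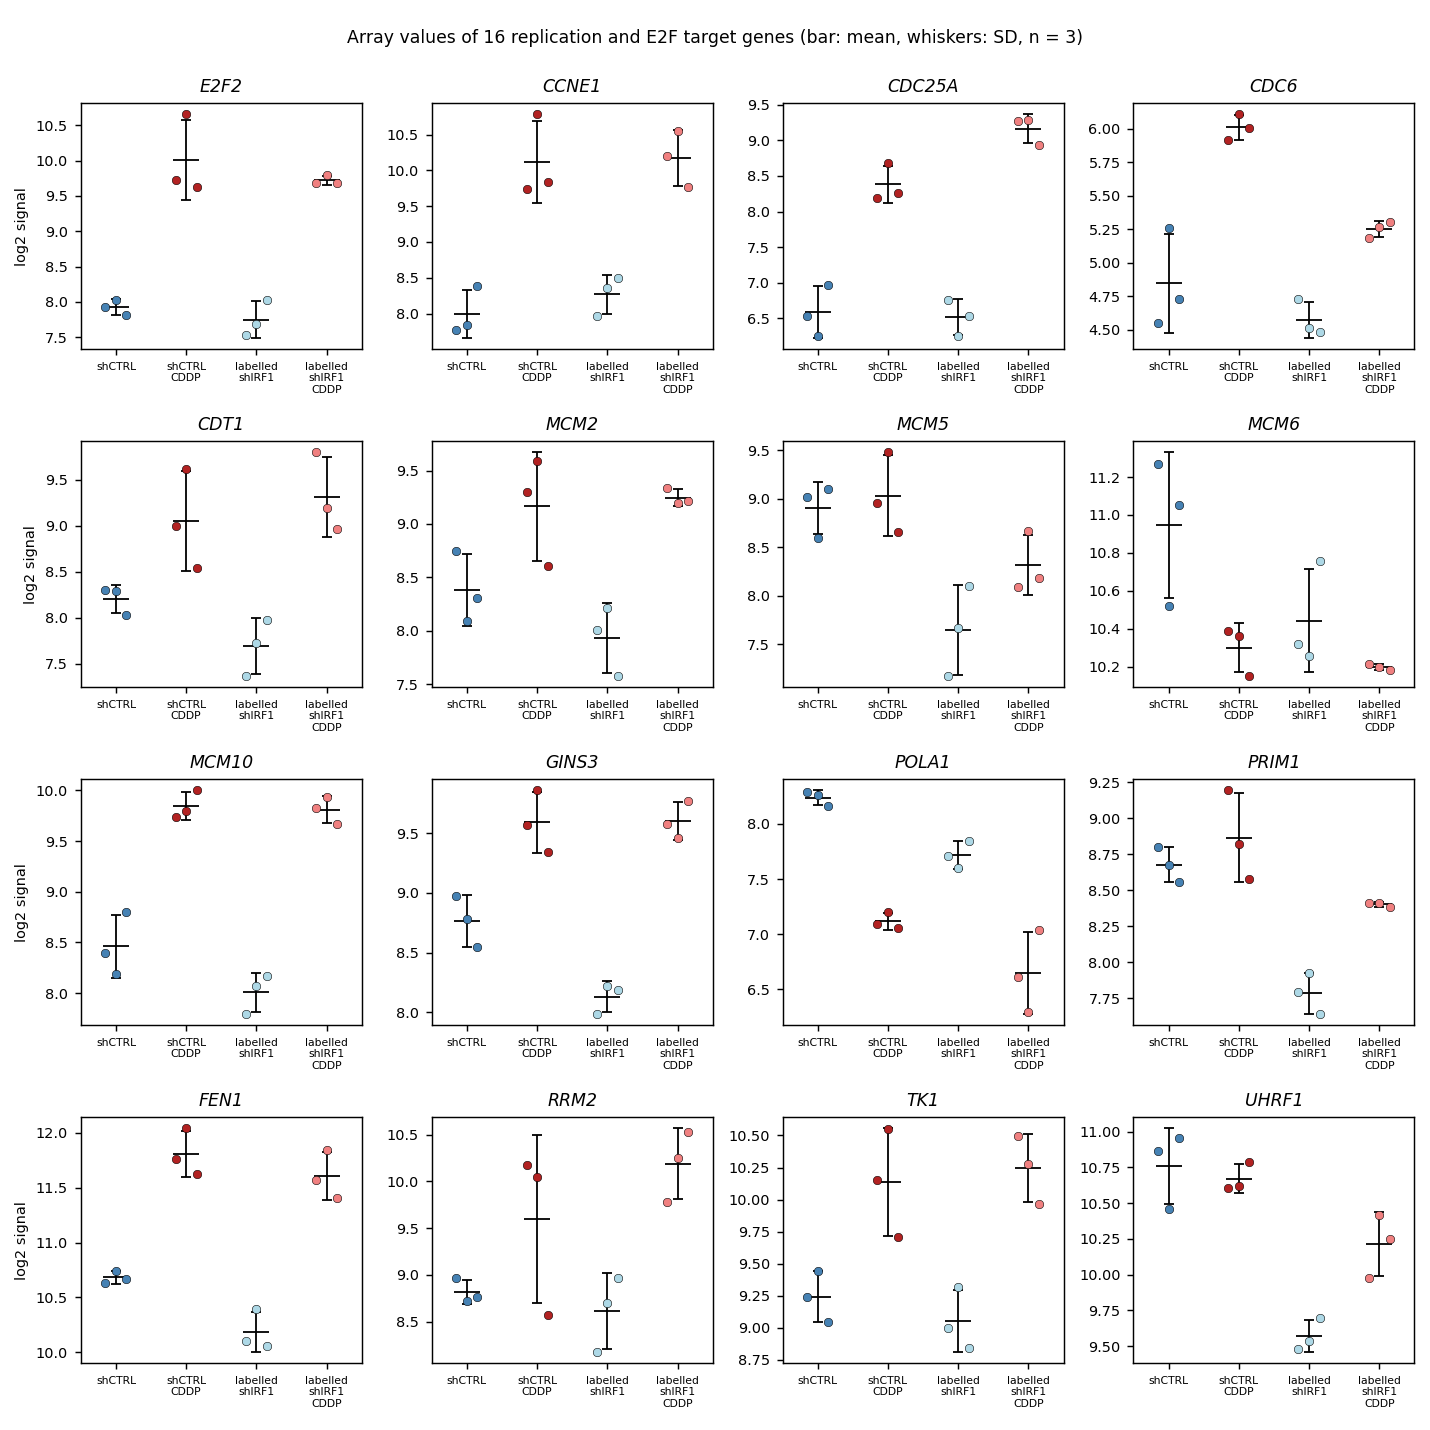
Log2 signal (y axis) on each of the 12 arrays for 16 of the genes, by group (x axis); points are arrays, bars are group means and whiskers SD (n = 3). E2F2, CCNE1, CDC25A and MCM10 sit higher on all 6 CDDP arrays, and POLA1 sits lower on each CDDP array than on every array without CDDP.

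The polymerases and primase held the largest fall of the 44 genes. Under shCTRL 0 of 7 genes rose and 1 fell (0% and 14.3%, against 13.5% and 13.5% of all features). Under the shIRF1 label 5 of 7 rose and 1 fell (71.4% and 14.3%, against 10.5% and 11.5%). The share that fell was near that of all features under both labels. POLA1, the catalytic subunit of polymerase alpha that starts every strand, read 8.28, 8.27 and 8.16 under shCTRL, 7.09, 7.20 and 7.06 with CDDP, 7.71, 7.60 and 7.85 under the shIRF1 label and 6.61, 6.30 and 7.04 with CDDP. It fell, with log2 changes of -1.12 and -1.07 (standard error 0.19, adjusted p = 0.000364 and 0.000713), with no overlap under either label. Its partners did not fall with it: POLA2, the accessory subunit, changed by 0.49 (adjusted p = 0.0897) under shCTRL and rose by 0.86 under the shIRF1 label. PRIM1, the primase subunit, changed by 0.19 (adjusted p = 0.5) and rose by 0.62. POLA1 spans 303 kb in GRCh38.p14, where the median of the 44 genes is 25.4 kb and that of the named genes tested 27.3 kb. Over 12485 named genes, the log10 span and the CDDP change correlated at r = -0.453 under shCTRL and -0.415 under the shIRF1 label, and over the 44 genes at -0.321 and -0.245. These are descriptions across genes, and the part of span in the fall of POLA1 was not tested.

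Of the genes of polymerases delta and epsilon, POLD1, POLD3 and POLE2 rose under the shIRF1 label and POLE missed the threshold. POLD3, a subunit of polymerase delta, read 6.91, 6.06 and 6.26 and then 7.21, 6.77 and 5.98 under shCTRL, which overlap (change 0.24, adjusted p = 0.607). Under the shIRF1 label it read 6.18, 6.12 and 6.47 and then 7.30, 6.81 and 7.62, without overlap, a rise of 0.99 (adjusted p = 0.0273). POLD1, the catalytic subunit of delta, rose there by 0.72 and POLE2, a subunit of epsilon, by 0.70, where shCTRL gave 0.46 and -0.07. POLE, the catalytic subunit of epsilon, changed by 0.68 and 0.71 and missed the threshold under both (adjusted p = 0.0628 and 0.0594). With the replicate number as a block over all 12 arrays, POLE (adjusted p = 0.0384), POLA2 (0.0416) and RFC4 (0.043) passed in limma under shCTRL. This block gives the 4 groups 1 shared shift per number. The shCTRL arrays with and without CDDP met a check of such pairing, but other groups did not (shCTRL and shIRF1 with CDDP, r = -0.013 to 0.041).

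The clamp, its loader and the lagging strand enzymes rose in 3 of 7 genes under shCTRL (42.9%, against 13.5% of all features). Under the shIRF1 label they rose in 6 of 7 (85.7%, against 10.5%). FEN1, the nuclease that trims Okazaki fragments, read 10.63, 10.74 and 10.67 under shCTRL, 11.76, 12.04 and 11.62 with CDDP, 10.10, 10.39 and 10.06 under the shIRF1 label and 11.57, 11.84 and 11.41 with CDDP. Its rises of 1.13 and 1.42 (standard error 0.18, adjusted p = 0.000239 and 3.98e-05) left no overlap. RFC2, a subunit of the clamp loader, read 6.98, 7.17 and 7.45 and then 8.15, 7.91 and 7.13 under shCTRL, which overlap, and 5.89, 6.81 and 6.76 and then 7.64, 8.06 and 7.91 under the shIRF1 label, which do not. The change was 0.53 (adjusted p = 0.183) in the first and 1.38 (adjusted p = 0.00209) in the second, where a further probe gave 0.68 and was not called (adjusted p = 0.0542). PCNA, the sliding clamp, rose by 0.65 (not past the threshold with its probes averaged, adjusted p = 0.216) and 0.91, and RFC5, of the loader, by 0.85 and 0.85. The dimmer PCNA probe changed by 0.08 and 0.80, neither called (adjusted p = 0.882 and 0.0699). LIG1, the ligase that seals the fragments, changed by 0.04 and 0.54 without passing (adjusted p = 0.91 and 0.0754). RFC4 and RFC3 rose by 0.62 and 0.59 under the shIRF1 label, and the 3 RFC3 probes ran from 0.17 to 0.98 there. Under shCTRL the RFC3 probe used gave 0.01 and another a called rise of 0.56.

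Nucleotide supply was represented by 4 genes, of which 1 rose under shCTRL (25%, against 13.5% of all features). Under the shIRF1 label 3 rose (75%, against 10.5%). With 4 genes, the 1 call under shCTRL does not set the step apart from all features. RRM2, the S phase subunit of ribonucleotide reductase, read 8.96, 8.72 and 8.76 and then 10.18, 10.05 and 8.57 under shCTRL. Of its 3 CDDP arrays, 2 lay far above and 1 below every array without CDDP, so that the change of 0.78 (standard error 0.35) did not pass (adjusted p = 0.111). Under the shIRF1 label RRM2 read 8.18, 8.70 and 8.97 and then 9.78, 10.26 and 10.53, a rise of 1.57 (adjusted p = 0.00377). TK1, the thymidine kinase of S phase, read 9.24, 9.45 and 9.05 and then 10.15, 10.55 and 9.71 under shCTRL, and 9.00, 9.32 and 8.85 and then 10.49, 10.28 and 9.97 under the shIRF1 label. Both rises, 0.89 and 1.19, were free of overlap. RRM1, the large reductase subunit, changed by 0.40 and rose by 0.68 under the shIRF1 label, while TYMS, thymidylate synthase, changed by 0.18 (95% interval -0.29 to 0.65) and 0.43 (-0.04 to 0.90).

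Chromatin on new DNA rose in 1 of 4 genes under shCTRL (25%, against 13.5% of all features). Under the shIRF1 label it rose in 3 of 4 (75%, against 10.5%). Here too the 1 call under shCTRL does not set the step apart from all features. CHAF1B, a subunit of the chromatin assembly factor that lays histones behind the fork, read 9.28, 9.23 and 9.38 under shCTRL, 9.83, 10.25 and 9.65 with CDDP, 8.86, 8.85 and 8.85 under the shIRF1 label and 10.14, 10.03 and 9.98 with CDDP. It rose by 0.62 (adjusted p = 0.0154) and 1.20 (adjusted p = 0.000141), with no overlap. Its partner CHAF1A changed by -0.10 and 0.33, with adjusted p of 0.769 and 0.302. SLBP, which binds the stem loop of histone messengers, rose by 0.85 under the shIRF1 label and changed by 0.46 under shCTRL, where a further probe gave a called rise of 0.63. UHRF1, which brings DNA methylation to the new strand, changed by -0.09 under shCTRL and rose by 0.64 under the shIRF1 label, where its dimmer probe, detected on 5 arrays, gave 0.28 and was not called.

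**Figure D3:**
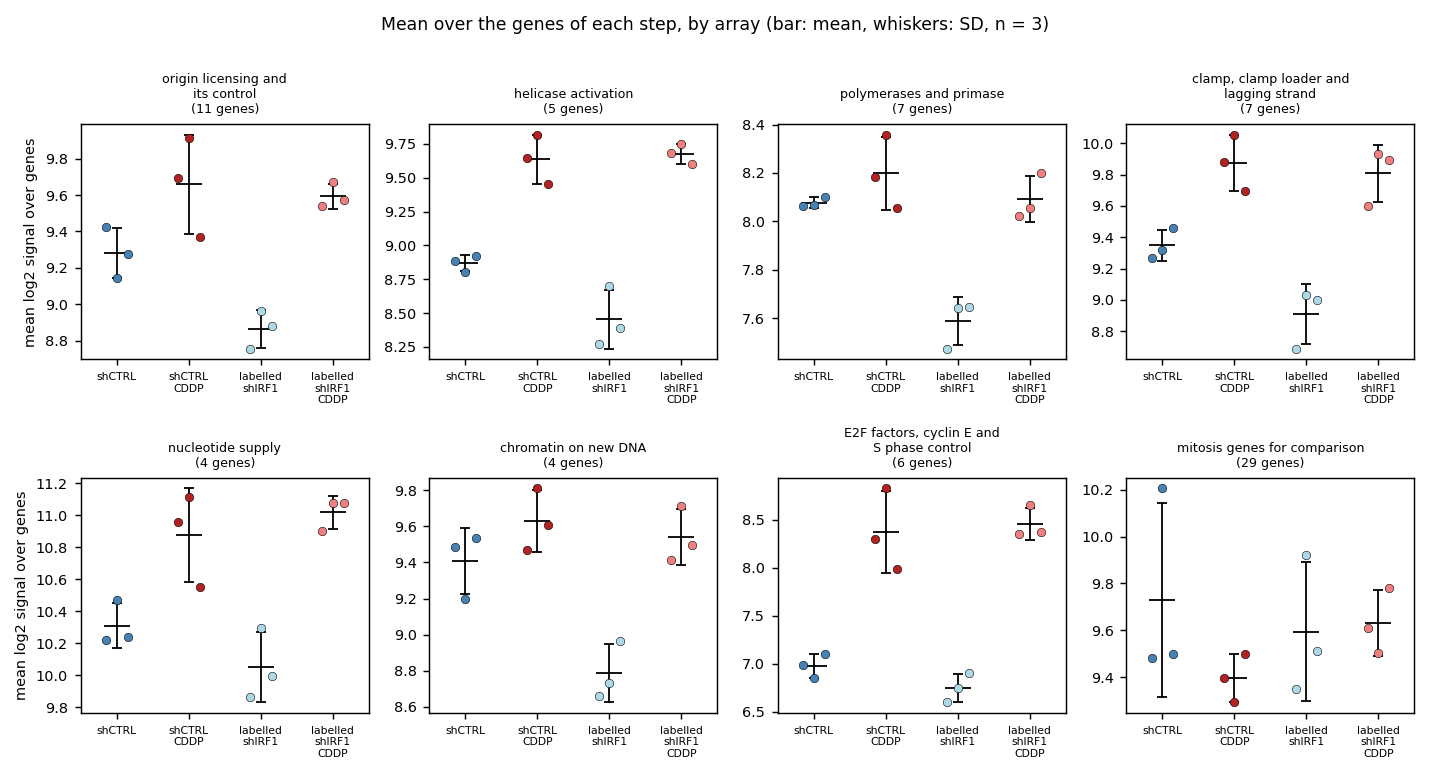
Mean log2 signal over the genes of each step (y axis) on each array, by group (x axis), with a list of 29 mitosis genes for comparison; points are arrays, bars are group means and whiskers SD (n = 3). For helicase activation, the clamp, nucleotide supply and E2F panels, the CDDP arrays lie above the others. The mitosis genes read highest on shCTRL replicate 2, at 10.21, and next on shIRF1 replicate 2, at 9.92.

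Of 31 further measured fork and origin genes, 8 rose and 2 fell with CDDP under shCTRL (25.8% and 6.45%, against 13.5% and 13.5% of all features), and 15 rose and 1 fell under the shIRF1 label (48.4% and 3.23%, against 10.5% and 11.5%). ASF1B, a histone chaperone, rose by 2.29 and 2.35, RECQL4, a helicase of origin firing, by 1.46 and 1.70, and CHTF18, of an alternative clamp loader, by 1.23 and 1.21. ORC2, a subunit of the origin recognition complex, fell (-0.75 and -0.91). ORC4, of the same complex, was detected on no shCTRL array with CDDP and was at least 1.60-fold lower there. Of 11 further measured nucleotide supply genes, DTYMK, the kinase after thymidylate, rose under shCTRL (2.04) and under the shIRF1 label (1.20), where DCK, deoxycytidine kinase, and IMPDH2, of guanine nucleotide synthesis, also rose (1.36 and 0.62). That is 1 of 11 (9.09%) under shCTRL, below the share of all features, and 3 of 11 (27.3%) under the shIRF1 label.

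Among 23 other measured E2F, pocket protein and DREAM genes, 6 rose and 5 fell under shCTRL (26.1% and 21.7%, against 13.5% and 13.5% of all features). Under the shIRF1 label 8 rose and 3 fell (34.8% and 13%, against 10.5% and 11.5%), the falls near the share of all features. The repressor E2F7 rose by 1.36 and 2.48 and E2F8 by 1.35 and 1.46. CDK2, the partner of cyclin E, rose by 1.07 and 1.56. The pocket protein gene RBL2 fell (-1.33 and -0.90), as did CDK6 (-1.43 and -0.98), a kinase that acts on pocket proteins. The other falls were those of RBL1 (-0.69), E2F5 (-0.75) and TFDP2 (-0.61) under shCTRL and of E2F4 (-0.55) under the shIRF1 label. Of 29 mitosis genes, 2 rose and 9 fell under shCTRL (6.9% and 31%, median change -0.44), and 5 rose and 2 fell under the shIRF1 label (17.2% and 6.9%, median -0.12). KIF11, a spindle motor, fell (-1.21), as did PLK1, a mitotic kinase (-1.19), under shCTRL, where KIF2C (0.93) and BIRC5 (0.62) rose. The shIRF1 label saw PLK1 (-1.10) and DLGAP5 (-0.71) fall and CDK1, the mitotic kinase itself (1.24), UBE2C (0.91), AURKB (0.90), BIRC5 (0.87) and KIF2C (0.82) rise. The array means of the mitosis list overlapped between groups, at 9.48 to 10.21 under shCTRL and 9.29 to 9.50 with CDDP. Without shCTRL replicate 2, 5 mitosis genes fell and the median was -0.19, and without shCTRL CDDP replicate 2, 0 rose and 5 fell. For the mitosis genes under the shIRF1 label the sign of the median rested on single arrays: it was 0.05 without shIRF1 replicate 2 (5 rose, 0 fell) and 0.03 without shIRF1 CDDP replicate 2 (3 rose, 0 fell), against -0.29 without shIRF1 replicate 1 (2 rose, 2 fell). With any 1 array left out, the mitosis calls ranged from 0 to 3 rises and 5 to 11 falls under shCTRL and from 2 to 5 rises and 0 to 2 falls under the shIRF1 label.

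Without CDDP, most of these genes read lower on the arrays labelled shIRF1, though few passed the test. The difference from shCTRL was below 0 for 42 of 44 genes (95.5%, against 49.7% of all features), with a median of -0.43 against 0.002 over all features. Calls numbered 3, all lower (6.82%, where 2.75% of all features were lower and 3.1% higher). Arrays did not overlap for 20 of 44 genes (45.5%, against 25.1% of all features), and 21 had an unadjusted p under 0.05 (17.1% of all features did). The 29 mitosis genes had a median of -0.10 and no call in limma, with an unadjusted p under 0.05 for 4. Of the arrays labelled shIRF1 without CDDP, replicate 1 read lowest for 27 of the 44 genes and highest for 3, and without it 41 of 44 differences were below 0 and their median was -0.35. IRF1 itself did not separate these arrays, and what sets the labels apart was not tested.

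The 3 genes that passed belong to 3 steps. MCM5, of the MCM ring, read 9.02, 8.59 and 9.10 under shCTRL and 7.18, 7.67 and 8.10 under the shIRF1 label, all lower, and 8.96, 9.48 and 8.66 against 8.09, 8.67 and 8.19 with CDDP, which overlap. The difference was -1.26 (standard error 0.26, adjusted p = 0.00936) without CDDP, a call lost without shCTRL replicate 3 (adjusted p = 0.0508) or without shIRF1 replicate 1 (0.0605). UHRF1 read 10.86, 10.46 and 10.95 and 9.48, 9.54 and 9.70 without CDDP, and 10.60, 10.62 and 10.79 and 9.98, 10.42 and 10.25 with it, apart in both. Its differences were -1.19 (adjusted p = 0.000834) and -0.46 (adjusted p = 0.193). The dimmer UHRF1 probe gave -0.35 without CDDP and was not called (adjusted p = 0.614), and the mean of both probes gave -0.77 (adjusted p = 0.0366). PRIM1 read 8.80, 8.68 and 8.55 and 7.79, 7.92 and 7.64 without CDDP, and 9.19, 8.82 and 8.58 and 8.41, 8.41 and 8.38 with it, also apart in both. The differences were -0.89 (adjusted p = 0.00698) and -0.46 (adjusted p = 0.18), and a further PRIM1 probe gave a called -1.09 without CDDP. RFC3, of the clamp loader, had a called lower value on a further probe only (-0.69, adjusted p = 0.0278 in limma over all kept probes). The RFC3 probe used gave -0.62 (adjusted p = 0.0846) and another gave -0.70 (0.103).

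**Figure D4:**
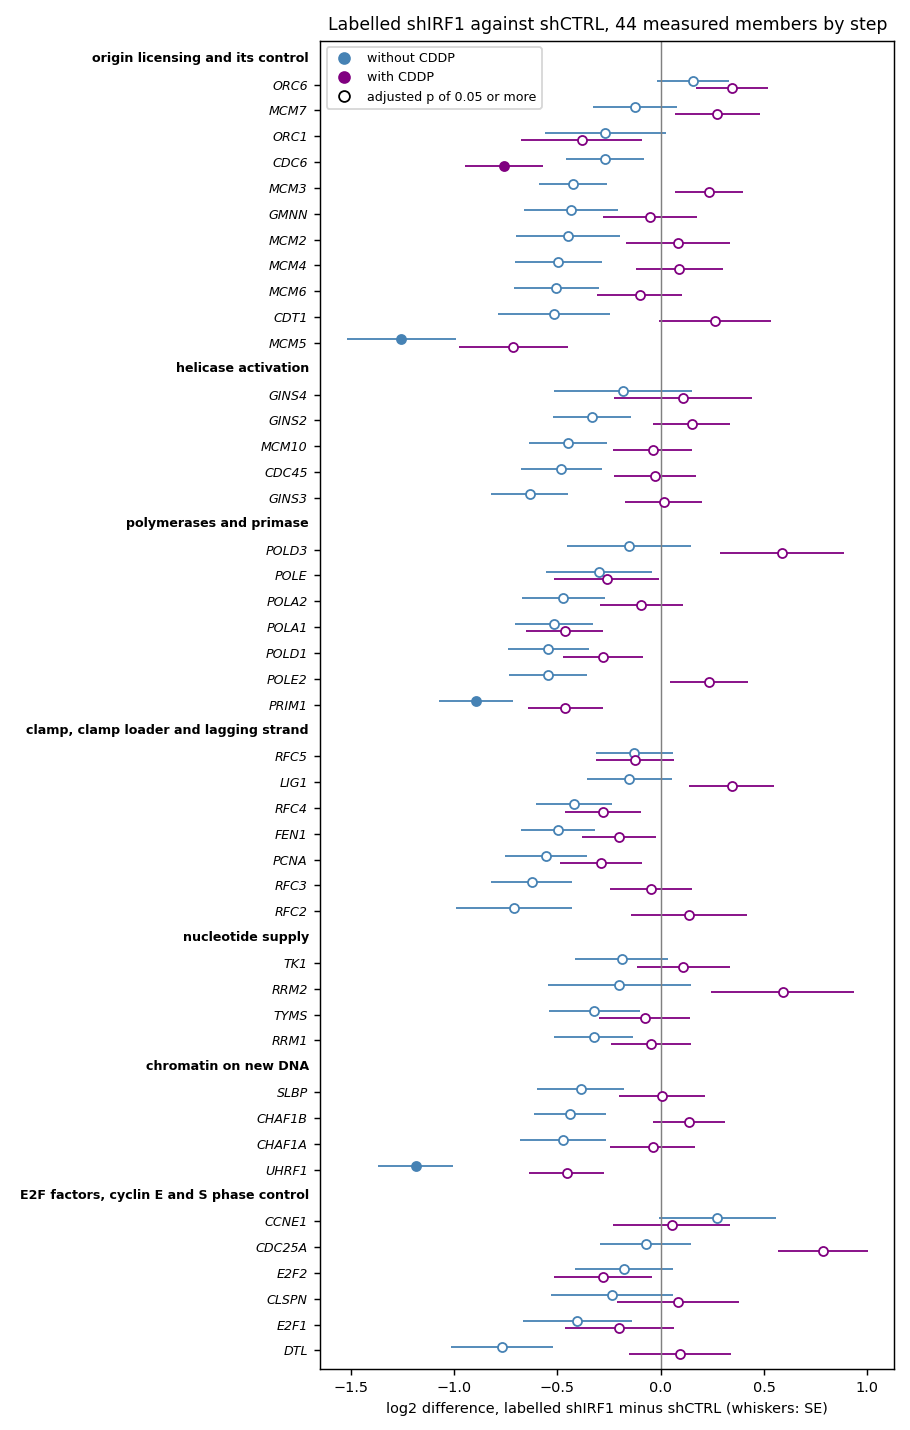
Log2 difference between arrays labelled shIRF1 and shCTRL (x axis) for the 44 genes by step (y axis), without and with CDDP; whiskers are standard errors and filled points have an adjusted p under 0.05. Points without CDDP lie left of 0 for 42 genes, while those with CDDP scatter about 0, 23 of them below it.

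Each step had a median below 0 without CDDP, but the steps differed in how many genes showed no overlap between labels. Such genes numbered 4 of 11 in licensing, 3 of 5 in helicase activation, and 5 of 7 in both the polymerases and the clamp. They numbered 2 of 4 in chromatin, 1 of 6 in the E2F step and 0 of 4 in nucleotide supply, against 25.1% of all features. Medians without CDDP were -0.43 for licensing, -0.45 for helicase activation, -0.52 for the polymerases, -0.50 for the clamp and lagging strand, -0.46 for chromatin, -0.26 for nucleotide supply and -0.21 for the E2F and cyclin E step. CCNE1 was one of the 2 genes above 0, at 0.27 (95% interval -0.33 to 0.88), and ORC6 the other, at 0.16, where its dimmer probe gave -0.64. In the wider lists E2F7 (-1.26), MYBL2, the B-MYB factor (-0.96), CDK6 (-0.76) and CDK2 (-0.68) were lower, as were POLE3 (-0.73), CHEK1 (-0.64) and DCK (-0.81), all past the threshold. The kinase inhibitor genes CDKN1C and CDKN1B were higher, by 1.26 and 0.89, while CDKN1A differed by -0.02 (95% interval -0.66 to 0.62).

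With CDDP the gap was not seen at this size. The difference between labels was below 0 for 23 of 44 genes (50.4% of all features), with a median of -0.03, and arrays did not overlap for 7 (15.9%, against 21.2% of all features). The split moved with single arrays: 17 of 44 lay below 0 without shCTRL CDDP replicate 2 and 29 without shCTRL CDDP replicate 3. With any 1 array left out the median ran from -0.11 to 0.099. Only CDC6 passed, at -0.76 (standard error 0.19, adjusted p = 0.0355), where 2.2% of all features were lower and 1.65% higher. That call was lost in 12 of 21 alternatives, among them median scaling (adjusted p = 0.286) and leaving out any of the 6 arrays with CDDP. CDC25A went the other way, at 0.79 with no overlap between the labels, and missed the threshold (adjusted p = 0.0601).

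The difference between the CDDP responses was tested directly. The response under the shIRF1 label minus that under shCTRL was above 0 for 40 of 44 genes and below 0 for 4 (50.5% of all features lay below 0), with a median of 0.40 against -0.01 over all features, and 0 genes passed in limma (0.0667% of all features did). An unadjusted p under 0.05 was reached by 8 of the 44, where 8.09% of all features reached it: MCM3, GINS3, POLE2, RFC2, CHAF1B, UHRF1, CDC25A and DTL. Their values ran from 0.58 for CHAF1B to 0.86 for CDC25A, with adjusted p of 0.455 (POLE2) or more. The larger count of rises under the shIRF1 label is thus not shown gene by gene to be a larger response. The mitosis list gave 26 of 29 genes above 0 and a median of 0.31, also with 0 passing and 2 at an unadjusted p under 0.05. The arrays labelled shIRF1 without CDDP enter both this difference and the lower values described above, so the 2 are not independent.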

How the data were processed

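Per the labels, total RNA of 12 SK-OV-3 samples was made into biotinylated cRNA and hybridised to 1 Illumina array each, and per the submitters' processing notes BeadStudio 2 was used. Per its column headers, the deposited table holds for each of 47313 probes an average signal and a detection p-value. The table is labelled non-normalized, and its p-values were taken to be against the negative controls. The authors' series matrix holds an intensity that follows each array's signal linearly (r = 1 on each array, factors 1.37 to 2.66, constants -116 to -14.2). It is linear and uncentred, with brighter as higher, and what set the factors stays unknown. Its column medians were 122, 119.93 and 119 (shCTRL), 126, 123 and 132 (shCTRL with CDDP), 116, 117 and 119 (shIRF1), and 123, 119 and 116 (shIRF1 with CDDP).

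Normalization used neqc (limma 3.58.1, R 4.3.3), which takes the negative control level from the detection p-values, then applies normexp, an offset of 16, quantiles and log2. Of 47313 probes, 30109 have 1 gene symbol in the platform annotation, 8 several and 17196 none, and 30070 symbols were updated through Entrez identifiers to RefSeq names (GRCh38.p14). Kept were 22260 probes whose detection p-value was under 0.05 on 3 arrays or more, and the brightest probe stood for a gene, which left 17988 features. The 12 arrays were fitted together, each group with its mean (lmFit, eBayes, 8 residual and 7.18 prior degrees of freedom), with 5 contrasts and two-sided p-values adjusted by Benjamini-Hochberg over all features. Called means an adjusted p under 0.05. Levels were not compared between probes. Bounds set the brighter group's mean against the dimmer group's values of the same probe or, where higher, each array's lowest detected signal. The number of arrays limits the precision. The model was tested on simulated data for the labels without CDDP, in which few features changed. It called 3 of 100 changes of 0.5 log2 and 47 of 100 changes of 1 log2, and made 3 false calls. A difference that was not called is thus not shown to be absent.

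The genes, the wider lists and the tests were chosen with earlier results of these data known. Array values are given for the 2 genes of each step with the largest change in any pairwise comparison and for those called between labels, with IRF1 and CDKN1A as checks. E2F2, MCM6 and MCM3 were added after their values were seen. From the wider lists, up to 4 called genes per comparison were named by size, and any others named where a count was 5 or fewer were chosen after their values were seen.

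Same-numbered arrays deviated together in all 3 pairs of shCTRL with and without CDDP (r = 0.159 to 0.208), so by that check the numbers pair these groups. Of all 18 same-numbered pairs 10 exceeded 0.1, and of 36 other pairs none did. Mean signal also went with the number (259 to 282 for number 1, 300 to 381 for number 2, 349 to 388 for number 3). Alternatives covered background correction, scaling, the matrix values, the detection filter, the mean of probes, the replicate block, the samples in the fit, array weights, an intensity trend and each array left out.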

Additional observations from a re-analysis of the deposited data

Results flagged for a closer look

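MCM3, a subunit of the MCM ring, stood on opposite sides of shCTRL depending on CDDP. Without CDDP its log2 difference, arrays labelled shIRF1 minus shCTRL, was -0.43 (11.29, 11.24 and 11.35 against 11.82, 11.47 and 11.87). With CDDP it was 0.23 (11.62, 11.78 and 11.56 against 11.31, 11.51 and 11.45), and in neither case did the arrays overlap. Arrays did not overlap for 25.1% of all features without CDDP and for 21.2% with it. Neither MCM3 difference passed in limma (adjusted p = 0.179 and 0.49). A further MCM3 probe gave -0.53 and 0.51, neither called in limma (adjusted p = 0.345 and 0.328), and its arrays overlapped without CDDP. The difference of the responses, 0.66 (standard error 0.23), was tested in limma and did not pass (adjusted p = 0.475).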

How the results depend on the processing

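Over 22 alternatives per comparison (21 for genes that 1 filter removed), no gene called here changed sign in any comparison. Several alternatives leave the estimate as it was and bear on the p-value only. These are the replicate block, only the groups compared, the intensity trend, no detection filter and leaving out an array of a group not compared. In these the sign could not change. Of the called genes, 2 of 3 (labels without CDDP), 0 of 1 (labels with CDDP), 11 of 19 (CDDP under shCTRL) and 21 of 34 (CDDP under the shIRF1 label) stayed called in every alternative. Without CDDP, the 3 genes lower under the shIRF1 label became 7 with no background correction, 5 with array weights and 2 to 4 with 1 array left out. With CDDP, the 1 lower gene (CDC6) became 0 with no background correction, median scaling, the series matrix, the stricter detection filter, only the groups compared, array weights and an intensity trend, and 0 to 1 with 1 array left out. The count higher there went from 0 to 1 with no background correction, the series matrix, the stricter filter and the intensity trend, and ranged from 0 to 1 with 1 array left out. For CDDP under shCTRL, the 17 rises ranged from 11 to 19 and the 2 falls from 1 to 2 with 1 array left out, and the falls numbered 1 with median scaling and with only the groups compared. For CDDP under the shIRF1 label, the 33 rises became 21 with median scaling and ranged from 24 to 36 with 1 array left out, and the median of 0.85 became 0.63 with no background correction. With the replicate number as a block, 20 genes rose and 2 fell under shCTRL and 34 rose and 1 fell under the shIRF1 label (POLE added), and the block changed no other call. Over all features, median scaling took the rises with CDDP from 2425 to 1289 under shCTRL and from 1890 to 1023 under the shIRF1 label, and the calls between labels from 557 higher and 494 lower to 305 and 269 without CDDP, and from 296 and 396 to 176 and 165 with it, where the higher share of calls moved from 42.8% to 51.6%. The 12 calls on the difference of the responses, 1 higher and 11 lower, ranged from 2 to 18 lower over the alternatives and held no gene described here in any of them. The slide as a block was not run, because the headers name no slide. Leaving out single arrays for the mitosis list was added after its values were seen. Signal over background limits CDC6, CLSPN and the 2 genes not measured. The causes of these shifts were not tested.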
